A study of Mus musculus with 9 samples.

Results

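The insulin-like growth factor (IGF) axis was described here by 10 genes: the ligands Igf1 and Igf2, the receptors Igf1r and Igf2r, and the binding proteins Igfbp2, Igfbp3, Igfbp4, Igfbp5, Igfbp6 and Igfbp7. The measurement was open chromatin by ATAC-seq, in which the Tn5 transposase inserts sequencing adapters into accessible DNA and stretches with many insertions are called as peaks. Each gene was given the peaks that overlap its span or the 50 kb on either side of it (GRCm38), and the Igf2 window was extended to 150 kb on the side of H19. These windows held 173 of the 124230 regions obtained by merging overlapping peaks from all 9 deposited lists. The windows of Igfbp2 and Igfbp5 overlap, and the regions they share were counted once in totals.

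The libraries came from 3 cell lines derived from primary mouse osteosarcomas, which are bone tumours, and all were grown in DMEM with fetal bovine serum. One line is labelled p53R172H/- (called R172H), one p53R245W/- (R245W) and one p53-/- (null), with 3 libraries each. R172H and R245W are missense changes in the DNA-binding domain of p53. No line with wild-type p53 was among them. Each genotype was represented by 1 line, so genotype and line cannot be told apart, and separate cultures for the 3 libraries are not stated in the labels. P-values therefore measure the spread between libraries, which may be technical. Read depth is unknown, and no RNA was measured.

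Igf1 and Igf2 are secreted peptides that signal through Igf1r, a receptor tyrosine kinase that drives growth and survival. Igf2r, the cation-independent mannose-6-phosphate receptor, takes Igf2 up for degradation. The binding proteins carry the ligands outside the cell and can block or prolong their action; Igfbp7 binds them only weakly. Igf2 is expressed from the paternal copy, under an imprinting control region next to H19, and Igf2r is silenced on the paternal copy by the overlapping RNA Airn in most mouse tissues. Osteoblasts secrete both ligands and several binding proteins, and IGFBP3 is a known target of p53 in human cells.

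The 9 lists held 72840, 74352 and 72907 peaks in the R172H libraries, 76868, 79424 and 75314 in the R245W libraries, and 65199, 65942 and 65772 in the null libraries. A region was called in a library if at least 1 of that library's peaks fell in it. A peak's strength is given in 1 of 2 ways. The percentile is the place of its -log10 q, the authors' own value, among all peaks of the same library, and it only ranks a peak within its list. The scaled pile-up is the height of the read pile-up at the summit, recovered from the authors' fold and p, divided by the library's median over the 36473 regions called in all 9 libraries. Peaks covered the promoters of Runx2, Col1a2, Alpl and Spp1, 4 of the 6 osteoblast-lineage markers with a promoter window, in all 9 libraries, and those of the other two, Bglap and Ibsp, in none. Of the haematopoietic markers, Cd68 had a promoter peak in all 9 libraries, and Ptprc and Cd3e in none. Of the endothelial markers, Kdr had one in all 9 libraries and Tek in none. Of the epithelial markers, Krt8 had one in 2 R172H libraries, Epcam in 1 R245W library and Krt18 in none. The skeletal muscle markers Myog and Myf5 had one in none. The other markers listed had no promoter window.

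The R172H line had the most peaks over the joined windows of the 10 genes. Their number was 106, 107 and 104 in the R172H libraries, 90, 104 and 97 in the R245W libraries, and 87, 94 and 87 in the null libraries. All R172H libraries lay above all null libraries, R172H 3 and R245W 2 had the same number, and the range of the R245W libraries overlapped that of the null libraries. The means were 105.7 ± 1.53 for R172H, 97 ± 7 for R245W and 89.3 ± 4.04 for null (SD, n = 3 libraries each), and the spread between lines had p = 0.025 in a one-sided exact permutation test over the 280 partitions of the libraries into 3 groups of 3. Between single pairs of lines, where 3 against 3 libraries cannot go below 0.1, the two-sided exact permutation p was 0.1 for R172H against null, 0.2 for R245W against null and 0.2 for R172H against R245W. The joint test did not hold without some single libraries: the exact p was 0.075 without R172H 1 or without R172H 2, 0.0571 without R172H 3, and 0.0679 without null 1 or without null 3. The Igf2 window alone held 12, 12 and 13 of these peaks in the R172H libraries. It held 1, 2 and 1 in the R245W libraries and 1 in each null library. With this window left out the R172H line did not have the highest mean, and the joint test was not run that way.

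Gene by gene, none of the 10 windows passed the test that was run in all 19290 protein-coding gene windows with a peak. The test was the same exact permutation test on the peaks per window, adjusted by Benjamini-Hochberg, and 9.63% of all windows passed an adjusted p of 0.05. Without adjustment 6 of the 10 genes were under 0.05, among them Igfbp2 and Igfbp5, which rest largely on the same regions. Such values were common over all windows, since the largest of them, 0.0464 for Igfbp3, had an adjusted p of only 0.0882. The share of all windows under 0.05 without adjustment was not counted, so the 6 are not read as an excess. When base pairs covered by peaks were used in place of the number of peaks, 7 of the 10 passed, but so did 75.8% of all windows. The peak counts of all R172H libraries exceeded those of all null libraries in 5 of the 10 windows (28.2% of all gene windows), and the reverse held in 1 (16.2%). All R245W libraries exceeded all null libraries in 2 windows (32.8%), and the reverse held in 0 (7.37%). These 2 are the overlapping windows of Igfbp2 and Igfbp5, which are also among the 5 with R172H above null, so they are not separate results. All R172H libraries exceeded all R245W libraries in 4 windows (15.7%), and the reverse held in 2 (27.2%).

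**Figure D1:**
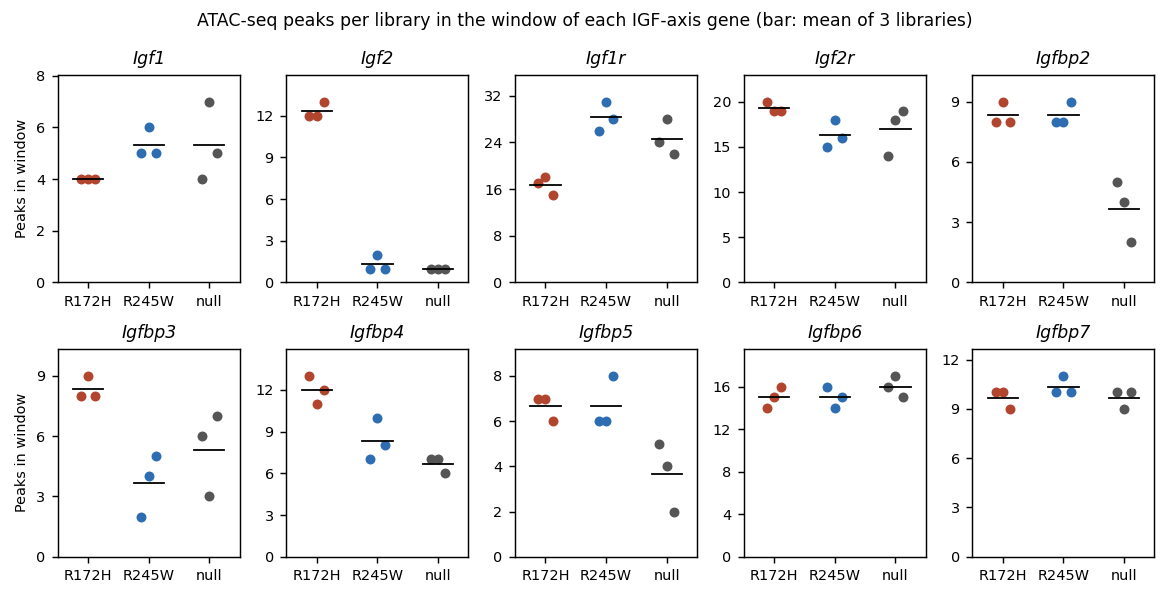
Number of ATAC-seq peaks (vertical axis) in the window of each IGF-axis gene, 1 panel per gene, with 1 point per library and a bar at the mean of the 3 libraries of a line; lines run from R172H through R245W to null. Igf2 has 12 to 13 peaks in R172H libraries, 1 to 2 in R245W libraries and 1 in each null library, whereas Igfbp7 has 9 to 11 in every library.

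At the level of regions, 48 of the 173, or 27.7%, were called in all 9 libraries, close to the 29.4% of all regions. Regions called in all 3 R172H and no null library numbered 29, or 16.8% of the 173 (14.5% of all regions), against 17 in the opposite direction, or 9.83% (10.3%). For R245W and null the counts were 16, or 9.25% (10%), and 4 in the opposite direction, or 2.31% (4.03%). For R172H and R245W they were 25, or 14.5% (11.5%), and 19, or 11% (13.8%). Most of these shares lie near those of all regions, and the lowest, 2.31% against 4.03%, rests on 4 regions. Single windows held many of the regions. The Igf2 window held 10 of the 29 that null lacked and 10 of the 25 that R245W lacked. The Igf1r window held 11 of the 17 and 12 of the 19 that R172H lacked. The count of 4 regions called in null and not in R245W was 9 without null 1.
Regions that every R172H library had and no other library had numbered 21 (9.83% of all regions fall in this class), and 10 of these 21 lay in the Igf2 window. The corresponding numbers were 6 for R245W (5.79%) and 2 for null (2.74%). Regions missing from all libraries of 1 line and called in all of the other two lines numbered 11 for R172H (6.21%), 1 for R245W (0.858%) and 7 for null (3.04%), and 9 of the 11 that R172H lacked lay in the Igf1r window.

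Igf2 had more regions than any other member that every library of a single line shared and the other lines lacked. Its window, chr7:142500768-142716816 on GRCm38, had 12, 12 and 13 peaks in the R172H libraries, 1, 2 and 1 in the R245W libraries and 1, 1 and 1 in the null libraries (exact permutation p = 0.0357, Benjamini-Hochberg adjusted p = 0.0718). No R172H library overlapped a library of the other two lines. Of the 15 regions in the window, 10 were found in every R172H library and nowhere else, 3 were called in 1 R172H library and in no other, 1 was called in R172H 3 and R245W 2, and 1 was called in all 9. The last, chr7:142532702-142534064, lies at the start of Mrpl23, a mitochondrial ribosomal protein gene, and its percentile was 75.1, 77.8 and 75.8 in the R172H libraries, 79.4, 78.8 and 78 in the R245W libraries, and 78.5, 75.8 and 78.9 in the null libraries.

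Within the Igf2 span there were 3 regions in each R172H library and 0 in each of the other 6 libraries. The strongest, chr7:142658699-142659792, covers the RefSeq start at 142658804 and had percentiles of 68.4, 71.4 and 69.6 in the R172H libraries. A second, chr7:142657087-142658145, covers the start at 142657496, with percentiles of 52.9, 59.5 and 58.5. The third, chr7:142664033-142664822, was weak, with percentiles of 3.82, 9.74 and 8.71. The other 2 RefSeq starts of Igf2, at 142666816 and 142661271, had no peak in their promoter window in any library. The 250 bases upstream of the 2 starts with a peak are shown because they are the Igf2 promoters that peaks covered in the R172H line alone. They are from RefSeq (GRCm38.p6) and are written 5′ to 3′ on the gene's strand, with capitals marking motifs.
Igf2, start at 142658804, chr7:142658805-142659054, minus strand: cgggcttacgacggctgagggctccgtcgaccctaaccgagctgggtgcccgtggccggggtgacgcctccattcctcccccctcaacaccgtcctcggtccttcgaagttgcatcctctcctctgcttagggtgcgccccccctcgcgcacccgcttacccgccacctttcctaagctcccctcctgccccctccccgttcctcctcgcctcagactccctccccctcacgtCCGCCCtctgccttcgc
Igf2, start at 142657496, chr7:142657497-142657746, minus strand: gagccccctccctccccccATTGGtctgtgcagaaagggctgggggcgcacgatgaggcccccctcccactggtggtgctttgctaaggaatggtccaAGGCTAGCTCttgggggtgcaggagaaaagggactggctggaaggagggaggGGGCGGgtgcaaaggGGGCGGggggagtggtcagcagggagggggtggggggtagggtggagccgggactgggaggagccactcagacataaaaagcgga
The motifs searched, on both strands, were GGGCGG (the GC box, bound by Sp1), CCAAT (the CCAAT box), TATAAA (the TATA box), TGANTCA (the AP-1 site), TGTGGT (the Runx core) and the p53 half-site. The first sequence holds 1 GC box on the minus strand, 12 to 17 bases before the start. The second holds 2 GC boxes, 95 to 100 and 80 to 85 bases before the start, 1 CCAAT box on the minus strand at 227 to 231 and 1 match to the p53 half-site at 143 to 152. No match overlapped another. Of all 32851 RefSeq promoter sequences of this length, 32.7% hold GGGCGG, 33.8% CCAAT, 12.4% TATAAA, 6.75% TGANTCA, 14% TGTGGT and 7.13% the p53 half-site. A match is a match of letters and not a binding site. The GC content of the 2 Igf2 sequences is 68.8% and 66%, with 22 and 6 CpG dinucleotides, against medians of 52.4% and 6 over all promoter sequences.

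The other R172H regions lay on both sides of Igf2. Upstream, towards and beyond Ins2 (an insulin gene), were chr7:142671969-142672400, chr7:142675414-142676250 and chr7:142699287-142699937, with percentiles between 30 and 61.2. Downstream, between Igf2 and H19, were chr7:142644996-142645552, chr7:142626002-142627347 and chr7:142610597-142611489, with percentiles between 34.9 and 61.2. The strongest region specific to R172H in the window was chr7:142509208-142510622, in the span of Tnnt3, a troponin gene, 157 kb from the most upstream Igf2 start. Its percentiles were 79.9, 82.2 and 78.7 in the R172H libraries, and no other library had a peak there.

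No library of any line had a peak in the H19 span, chr7:142575530-142578146. In the R172H line the peak-free stretch around H19 was 67.7 kb long. In the R245W line the stretch without a peak in any of its libraries ran through H19, Igf2 and Ins2 for 356.3 kb, chr7:142538294-142894618, and in the null line for 360.5 kb, chr7:142533927-142894467. The R172H libraries had 10, 10 and 11 peaks inside the stretch that was empty in the null line, the R245W libraries had 0, 1 and 0, and the null libraries had 0 each by construction. From peak lists, an inaccessible stretch and one with fewer or no DNA copies cannot be told apart, and copy number was not measured. In the flanks the counts were closer. In the 1 Mb below the window, the R172H libraries had 48, 46 and 43 peaks, the R245W libraries 43, 43 and 45, and the null libraries 39, 42 and 42. In the 1 Mb above it, the R172H libraries had 35, 34 and 34 peaks, the R245W libraries 41, 41 and 39, and the null libraries 31, 33 and 35. Over the 45 regions called in all 9 libraries within 1 Mb of the window, the median difference in scaled pile-up was 0.09 on the log2 scale for R172H over null and -0.20 for R245W over null, each relative to the median of all such regions.

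**Figure D2:**
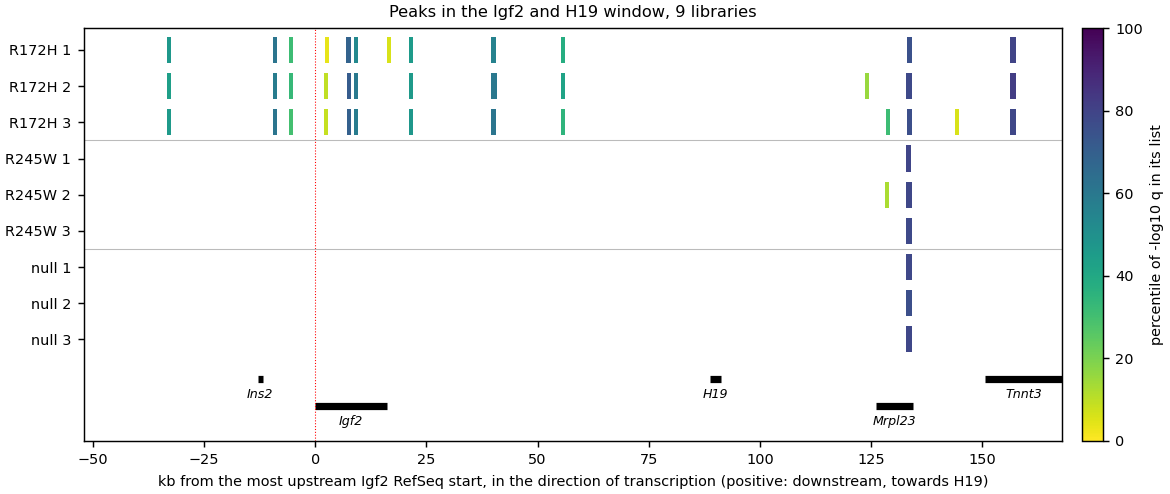
Peaks in the Igf2 and H19 window, 1 line of marks per library (R172H, R245W, null from top to bottom), by distance in kb from the most upstream Igf2 start; colour gives the percentile of each peak's -log10 q within its list, and black bars are gene spans. The R172H libraries carry 12 to 13 peaks, the R245W libraries 1 to 2 and the null libraries 1 each, and all 9 share the peak at Mrpl23.

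By the shape of its counts over the 9 libraries, the Igf2 window was most like the windows of Sema6d, Cntn6 and Lrrc4c among 15398 protein-coding gene windows compared, all more than 1 Mb away. Pearson's r over the 9 libraries was 0.999, 0.998 and 0.997 in that order. Sema6d had 22, 22 and 24 peaks in the R172H libraries, 2, 2 and 2 in the R245W libraries and 1, 1 and 1 in the null libraries. The 9 libraries fall into 3 lines, so such r values mostly rank windows that are high in R172H and low in the other lines.

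Igf1 did not follow Igf2. Its window, chr10:87808265-87987047, had 4, 4 and 4 peaks in the R172H libraries, 5, 6 and 5 in the R245W libraries and 4, 7 and 5 in the null libraries (exact permutation p = 0.207, Benjamini-Hochberg adjusted p = 0.286). All R245W libraries lay above all R172H libraries, by 1 peak or more, and the null libraries overlapped both. The region over the Igf1 start, chr10:87858518-87861169, was called in all 9 libraries at moderate strength: its scaled pile-up was 0.538, 0.6 and 0.575 in the R172H libraries, 0.625, 0.745 and 0.664 in the R245W libraries, and 0.398, 0.518 and 0.435 in the null libraries. All R245W libraries lay above all R172H libraries, and these above all null libraries, with means of 0.571 ± 0.0314 in the R172H line, 0.678 ± 0.0612 in the R245W line and 0.45 ± 0.0611 in the null line (SD, n = 3 libraries each). The strongest region shared by all libraries, chr10:87879739-87880866, lies 19.2 kb into the gene. Its scaled pile-up was 3.3, 3.13 and 3.25 in the R172H libraries, 1.07, 1.22 and 1.12 in the R245W libraries, and 2.37, 2.1 and 2.05 in the null libraries, so that all R172H libraries exceeded all null libraries, which exceeded all R245W libraries. The 1 region specific to a line, chr10:87885439-87886214, had percentiles of 25, 31.8 and 28.4 in the R245W libraries and 22 in null 2, and no peak in the R172H libraries or the other two null libraries. The windows nearest to Igf1 in their counts were those of Focad (r = 0.95), Psmg3 (r = 0.949) and Ift140 (r = 0.927) over the 9 libraries, among 15416 compared.

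Igf1r, the receptor that carries the signal of both ligands, had the longest window, 381.4 kb, and the most peaks of any member in the R245W and null libraries; in the R172H libraries Igf2r had more. The window chr7:67902257-68283668 had 17, 18 and 15 peaks in the R172H libraries, 26, 31 and 28 in the R245W libraries and 24, 28 and 22 in the null libraries (exact permutation p = 0.0107, Benjamini-Hochberg adjusted p = 0.0607). All R172H libraries lay below all libraries of the other two lines, which overlapped each other. Of its 49 regions only 6 were called in all 9 libraries, and 15 were called in a single library, 14 of these in a null library. The regions specific to a line ran in several directions. R172H had 7 that null lacked and null had 11 that R172H lacked; R245W had 8 that null lacked and null had 1 that R245W lacked; R172H had 3 that R245W lacked and R245W had 12 that R172H lacked.

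The strongest of these regions, chr7:68006107-68007311, lies 54.5 kb into Igf1r. Its percentiles were 72.6, 76.2 and 76.2 in the R245W libraries and 86.2, 86.1 and 83.4 in the null libraries, and it was called in no R172H library. At chr7:68048347-68049441 the pattern was the same, with 75, 71.7 and 65.1 in the R245W libraries and 68.2, 65.9 and 67.8 in the null libraries. In the other direction, chr7:67909842-67911235, 41.7 kb upstream of the start, had percentiles of 38.2, 34.1 and 35.7 in the R172H libraries and 71.5, 71.5 and 72.5 in the R245W libraries and was called in no null library. At chr7:68119675-68120423 only the R172H libraries had a peak, with percentiles of 49.7, 42.9 and 42.3, and at chr7:68148234-68148977 only the null libraries did, with 29, 33.7 and 38.6.

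The Igf1r start was open in every library and strongest in the null line. The region chr7:67950389-67953612 had a scaled pile-up of 3.23, 3.26 and 3.56 in the R172H libraries, 2.1, 2.12 and 2.34 in the R245W libraries, and 6.05, 6.1 and 5.86 in the null libraries. Its mean was 3.35 ± 0.182 in the R172H line, 2.19 ± 0.135 in the R245W line and 6 ± 0.125 in the null line (SD, n = 3 libraries each), and the 3 lines did not overlap. All 6 regions shared by the 9 libraries were higher in every null library than in any R172H or R245W library. For example, chr7:68021212-68022740, 69.7 kb into the gene, had percentiles of 91.3, 90.9 and 88.9 in the R172H libraries, 88.1, 89.7 and 87.5 in the R245W libraries, and 98.5, 97.3 and 99.1 in the null libraries. The chromosome around Igf1r moved with it. Relative to the median of all shared regions, the log2 difference in scaled pile-up in the window was -1.19 for R172H over null and -1.44 for R245W over null. It was -0.54 and -0.76 within 1 Mb outside the window, -0.99 and -0.99 from 1 to 5 Mb, -1.01 and -0.91 from 5 to 10 Mb, and -0.09 and -0.31 over the whole of chromosome 7, each given for R172H over null and then for R245W over null. The part of this wider difference in the values at Igf1r was not tested. Pile-up follows the number of DNA copies as well as their accessibility, and copy number was not measured.

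The Igf1r promoter and the Igfbp7 promoter held the strongest promoter peaks among the members in all 9 libraries, and their 250 bases are shown as the sequences of starts that were open in every line (RefSeq, GRCm38.p6, capitals as above).
Igf1r, start at 67952257, chr7:67952007-67952256, plus strand: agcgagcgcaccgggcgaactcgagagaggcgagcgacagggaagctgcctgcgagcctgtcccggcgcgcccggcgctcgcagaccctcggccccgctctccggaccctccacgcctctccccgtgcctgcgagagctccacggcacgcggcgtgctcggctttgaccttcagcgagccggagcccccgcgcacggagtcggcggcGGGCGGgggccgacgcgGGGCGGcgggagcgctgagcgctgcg
Igfbp7, start at 77408045, chr5:77408046-77408295, minus strand: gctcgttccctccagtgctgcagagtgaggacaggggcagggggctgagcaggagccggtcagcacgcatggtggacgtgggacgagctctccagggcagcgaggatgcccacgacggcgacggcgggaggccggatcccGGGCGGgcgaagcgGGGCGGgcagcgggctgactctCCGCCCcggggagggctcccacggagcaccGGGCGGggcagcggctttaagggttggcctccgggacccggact
The Igf1r sequence holds 2 GC boxes, 38 to 43 and 21 to 26 bases before the start. The Igfbp7 sequence holds 4, at 105 to 110, 91 to 96, 69 to 74 (minus strand) and 39 to 44. Neither holds any other motif searched. Their GC content is 77.6% with 42 CpG dinucleotides for Igf1r and 74% with 26 for Igfbp7.

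**Figure D3:**
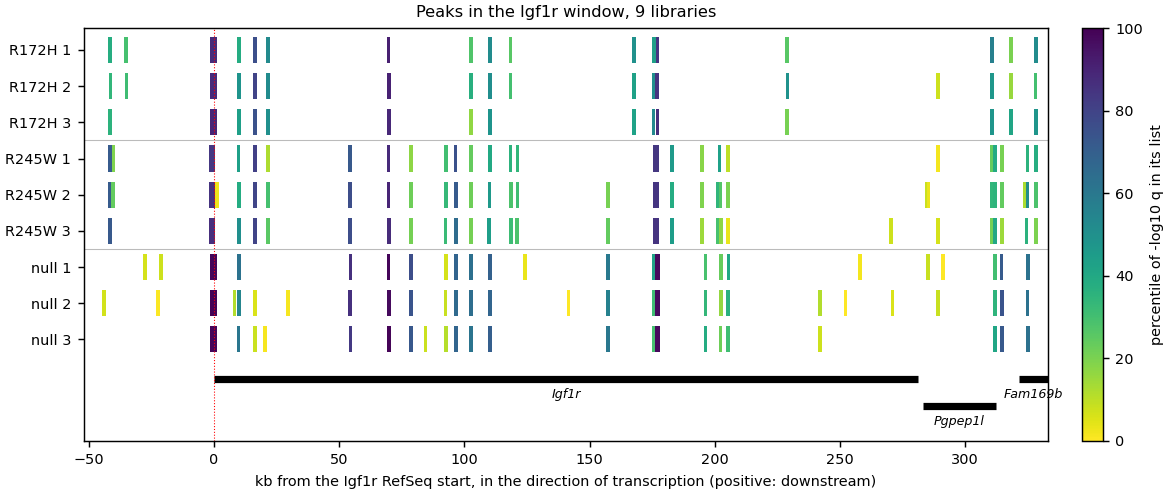
Peaks in the Igf1r window, 1 line of marks per library (R172H, R245W, null from top to bottom), by distance in kb from the Igf1r start; colour gives the percentile of each peak's -log10 q within its list, and black bars are gene spans. R172H libraries hold 15 to 18 peaks, R245W libraries 26 to 31 and null libraries 22 to 28, and the start is marked in all 9.

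Igf2r, the receptor that clears Igf2, differed between lines in the strength of single regions. Its window, chr17:12632406-12819706, had 20, 19 and 19 peaks in the R172H libraries, 15, 18 and 16 in the R245W libraries and 14, 18 and 19 in the null libraries (exact permutation p = 0.171, Benjamini-Hochberg adjusted p = 0.244). All R172H libraries lay above all R245W libraries, and the null libraries overlapped both. The Igf2r start region, chr17:12768436-12770297, had a scaled pile-up of 1.23, 1.18 and 1.17 in the R172H libraries, 1, 1.16 and 1.09 in the R245W libraries, and 1.13, 1.09 and 1.3 in the null libraries, and the lines overlapped. The start of Airn, chr17:12740042-12742792, was also open in all 9 libraries, with 2.28 ± 0.0966 in the R172H line, 1.42 ± 0.141 in the R245W line and 1.55 ± 0.00637 in the null line (SD, n = 3 libraries each). Both starts of this imprinted pair were thus open in every line, and all R172H libraries were above the rest at Airn. Peak calls do not separate the parental copies.

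Other Igf2r regions ordered the lines differently. At chr17:12724065-12725833, 44.8 kb into the gene, the scaled pile-up was 3.22 ± 0.0598 in the R172H line, 0.792 ± 0.0769 in the R245W line and 2.54 ± 0.0148 in the null line (SD, n = 3 libraries each). At chr17:12754274-12755459 it was 0.278 ± 0.00472 in the R172H line, 0.951 ± 0.064 in the R245W line and 1.51 ± 0.0127 in the null line (SD, n = 3 libraries each), and at chr17:12804543-12805473, upstream of Igf2r, it was 0.25 ± 0.0388 in the R172H line, 1.31 ± 0.193 in the R245W line and 1.89 ± 0.121 in the null line (SD, n = 3 libraries each). R172H was thus the highest at the first of these regions and the lowest at the others, with no overlap between R172H and the other two lines. The strongest region specific to a line, chr17:12799184-12800204, 30 kb upstream of Igf2r, had percentiles of 82, 83.1 and 82.6 in the R172H libraries, a weak call in R245W 3 at 1.51, and no call in the null libraries.

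**Figure D4:**
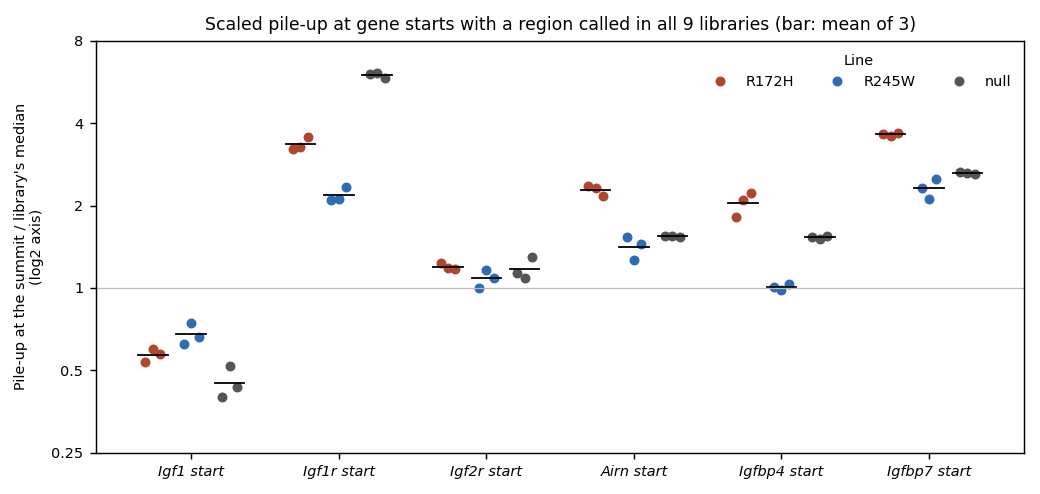
Scaled pile-up (pile-up at the summit divided by the library's median, log2 axis) at the starts of IGF-axis genes and Airn that were called in all 9 libraries, with 1 point per library and a bar at the mean of 3; lines run from R172H through R245W to null. The null line is highest at Igf1r, the R245W line at Igf1 and the R172H line at Airn, Igfbp4 and Igfbp7, and the lines overlap at Igf2r.

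Over the 48 member regions called in all 9 libraries, the scaled pile-up of all R172H libraries exceeded that of all null libraries in 19, or 39.6% (51% of all shared regions), and the reverse held in 20, or 41.7% (28.1%). All R245W libraries exceeded all null libraries in 5, or 10.4% (32.3%), and the reverse held in 33, or 68.8% (38.1%). All R172H libraries exceeded all R245W libraries in 33, or 68.8% (51.8%), and the reverse held in 8, or 16.7% (26.8%). Of the 48 regions, 13 lie in the Igfbp6 window, 9 in the Igf2r window, 8 in the Igfbp7 window and 6 in the Igf1r window. Regions of 1 window share their neighbourhood.

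Among the 14 RefSeq promoter windows of the members, 5 had a peak in all 9 libraries (38.5% of all promoter windows did) and 4 had one in no library. A promoter peak in all R172H and no null library was found at 4 of them (2.9%), 2 Igf2 starts and both Igfbp2 starts, and the reverse at 0 (1.36%). For R245W and null the counts were 1 (2.76%) and, in reverse, 1 (0.454%); for R172H and R245W they were 4 (1.57%) and, in reverse, 0 (2.47%). The 4 windows with a peak in R172H and not in null come from 2 genes, so they are not independent. The 4 with a peak in R172H and not in R245W are 2 Igf2 starts, the upstream Igfbp2 start and the Igfbp3 start. At that Igfbp2 start the R245W peaks began 0.051, 0.058 and 0.075 kb from the start, just past the promoter window.

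Igfbp2 and Igfbp5 are neighbours on chromosome 1 and share most of their windows. Osteoblasts secrete both, and Igfbp5 is abundant in bone matrix. The Igfbp2 window, chr1:72774480-72902474, had 8, 9 and 8 peaks in the R172H libraries, 8, 8 and 9 in the R245W libraries and 5, 4 and 2 in the null libraries (exact permutation p = 0.0357, Benjamini-Hochberg adjusted p = 0.0718). The Igfbp5 window, chr1:72808065-72924865, had 7, 7 and 6 peaks in the R172H libraries, 6, 6 and 8 in the R245W libraries and 5, 4 and 2 in the null libraries (exact permutation p = 0.0357, Benjamini-Hochberg adjusted p = 0.0718). In both windows every R172H and every R245W library lay above every null library, while R172H and R245W overlapped. These 2 results rest largely on the same regions.

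The region at the Igfbp2 starts, chr1:72824491-72825625, was present in every library of the 2 mutant lines and absent from the null libraries. Its percentiles were 53.6, 56.9 and 56.1 in the R172H libraries and 34.7, 23.7 and 37.1 in the R245W libraries. In the null libraries the nearest peak to the upstream start was 15.1, 15 and 30.3 kb away. At the upstream start, 72824480, only the R172H peaks reached into the promoter window, which ends 50 bases after the start. They began 0.021, 0.011 and 0.036 kb from the start, and the R245W peaks 0.051, 0.058 and 0.075 kb from it, so the bases upstream of this start lay outside the peaks of both lines. The downstream start, 72825387, was covered by the peaks of R172H 2, R245W 1 and R245W 3. In R172H 1, R172H 3 and R245W 2 the peaks ended 0.166, 0.106 and 0.177 kb short of it. Both upstream sequences are shown since this promoter separated the 2 mutant lines from the null line (RefSeq, GRCm38.p6, capitals as above).
Igfbp2, start at 72824480, chr1:72824230-72824479, plus strand: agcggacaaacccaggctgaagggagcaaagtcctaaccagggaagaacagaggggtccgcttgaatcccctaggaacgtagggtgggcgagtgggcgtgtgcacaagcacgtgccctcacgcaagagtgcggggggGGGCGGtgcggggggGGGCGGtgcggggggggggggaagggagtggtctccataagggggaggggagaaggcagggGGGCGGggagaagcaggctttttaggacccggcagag
Igfbp2, start at 72825387, chr1:72825137-72825386, plus strand: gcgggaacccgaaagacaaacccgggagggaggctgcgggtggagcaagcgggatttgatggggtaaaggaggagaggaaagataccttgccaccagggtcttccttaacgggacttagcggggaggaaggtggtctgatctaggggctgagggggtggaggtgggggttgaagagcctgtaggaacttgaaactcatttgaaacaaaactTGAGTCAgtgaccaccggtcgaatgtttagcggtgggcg
The first holds 3 GC boxes, at 108 to 113, 93 to 98 and 32 to 37 bases before its start, and the second holds 1 AP-1 site at 33 to 39. The GC content is 67.2% and 56.4%.

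A second region with this pattern was chr1:72871645-72872286, in the Igfbp5 span, with percentiles of 31.2, 40.6 and 46 in the R172H libraries and 18.9, 28.5 and 24 in the R245W libraries. Both regions shared by all libraries were weaker in the null line. At chr1:72870174-72871338, in the Igfbp5 span, the scaled pile-up was 0.663 ± 0.0475 in the R172H line, 0.77 ± 0.0482 in the R245W line and 0.208 ± 0.012 in the null line (SD, n = 3 libraries each). At chr1:72854656-72855575, between the genes, it was 0.379 ± 0.0149 in the R172H line, 0.355 ± 0.033 in the R245W line and 0.247 ± 0.0329 in the null line (SD, n = 3 libraries each). No null library overlapped a mutant library at either region. The wider chromosome differed less: within 1 Mb outside the Igfbp2 window the log2 difference relative to all shared regions was -0.36 for R172H over null and -0.06 for R245W over null, against 0.94 and 1.24 inside it. The strongest region specific to a line was chr1:72780387-72781357, 43.6 kb upstream of Igfbp2, with percentiles of 76.9, 75.6 and 77.3 in the R172H libraries and no peak elsewhere. The Igfbp5 promoter window itself had no peak in any library. Inside the gene, a weak region at chr1:72873681-72874115 was called in every R245W library, with percentiles of 16, 11.1 and 2.97. Its peaks lay 0.75, 0.833 and 0.764 kb from the Igfbp5 start in these libraries. It was also called in R172H 1 and R172H 2, at 3.99 and 3.76, and in no null library.

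Igfbp3, the main carrier of IGFs in blood, was the member whose promoter lacked a peak in the R245W line alone. Its window, chr11:7156086-7265498, which also holds Igfbp1, had 8, 9 and 8 peaks in the R172H libraries, 2, 4 and 5 in the R245W libraries and 6, 3 and 7 in the null libraries (exact permutation p = 0.0464, Benjamini-Hochberg adjusted p = 0.0882). All R172H libraries lay above all others. The promoter peak had percentiles of 83.7, 81 and 83 in the R172H libraries and 31.8, 23.7 and 25.4 in the null libraries. No R245W library had a peak in the promoter window: the nearest peaks were 13.7, 0.77 and 1.24 kb from the start. The sequence is shown for that reason (RefSeq, GRCm38.p6, capitals as above).
Igfbp3, start at 7213923, chr11:7213924-7214173, minus strand: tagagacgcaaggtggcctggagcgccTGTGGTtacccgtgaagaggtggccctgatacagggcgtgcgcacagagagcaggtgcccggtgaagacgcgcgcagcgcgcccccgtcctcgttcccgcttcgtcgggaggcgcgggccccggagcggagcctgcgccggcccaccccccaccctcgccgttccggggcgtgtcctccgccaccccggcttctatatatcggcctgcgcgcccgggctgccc
It holds 1 Runx core at 218 to 223 bases before the start and none of the other motifs searched, the p53 half-site included; its GC content is 73.2% with 32 CpG dinucleotides. At chr11:7192227-7193258, 21.2 kb from the start beyond Igfbp1, the pattern was the same: percentiles were 70.2, 68.9 and 68.8 in the R172H libraries and 4.39, 6.78 and 5.79 in the null libraries, with no peak in the R245W libraries. In contrast, chr11:7237588-7238508, 24.1 kb upstream, was called in all 9 libraries at percentiles of 90.8, 89.9 and 92.5 in the R172H libraries, 88.3, 89.1 and 89 in the R245W libraries, and 89, 89.8 and 88.7 in the null libraries. Igfbp1 had no promoter peak in any library.

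**Figure D5:**
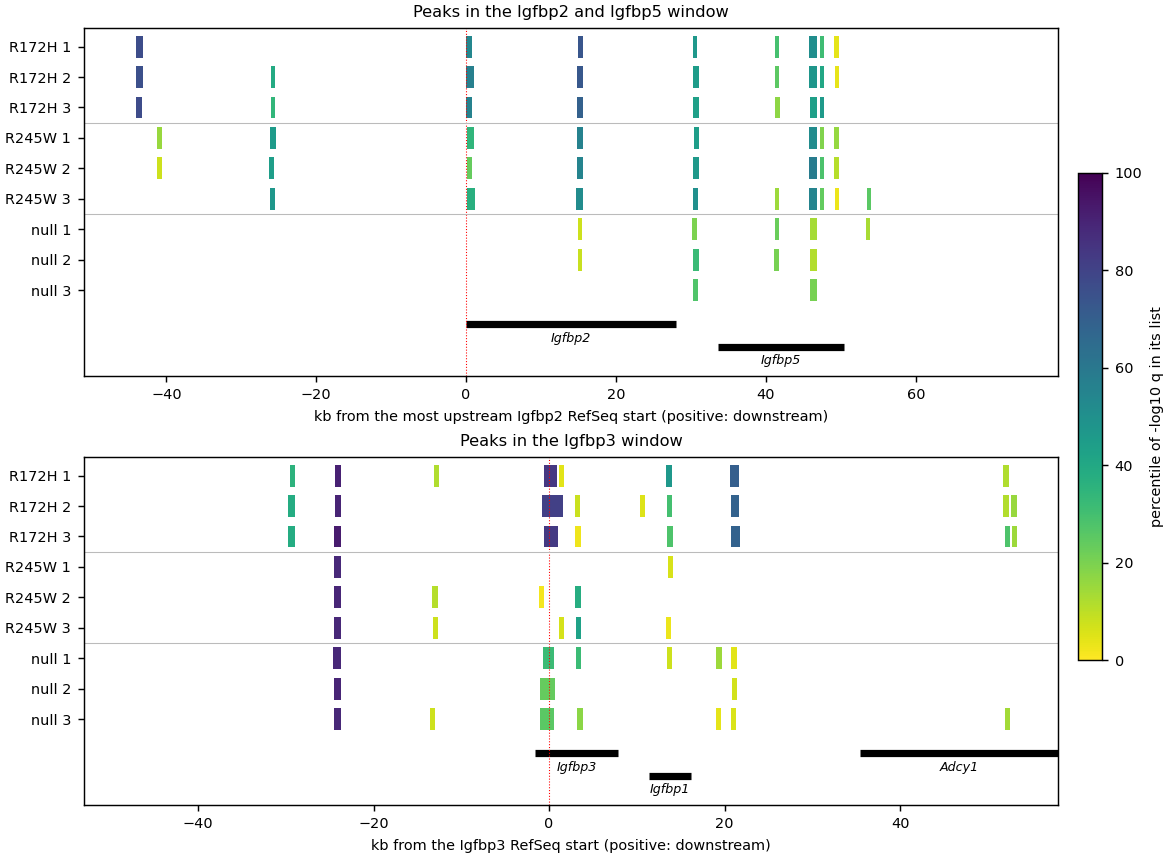
Peaks in the windows of Igfbp2 with Igfbp5 (top) and of Igfbp3 (bottom), 1 line of marks per library (R172H, R245W, null from top to bottom), by distance in kb from the Igfbp2 and the Igfbp3 start; colour gives the percentile of each peak's -log10 q within its list, and black bars are gene spans. No null library has a peak at the Igfbp2 starts, and the peaks of the mutant lines there begin just past the upstream start. At the Igfbp3 start the R172H peaks reach percentiles of 81 to 83.7 and the null peaks 23.7 to 31.8.

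Igfbp4, a binding protein that inhibits IGF action and is cleaved by the protease Pappa, had an open start in every line. Its window, chr11:98990005-99102655, had 13, 11 and 12 peaks in the R172H libraries, 7, 10 and 8 in the R245W libraries and 7, 7 and 6 in the null libraries (exact permutation p = 0.0107, Benjamini-Hochberg adjusted p = 0.0607). The adjusted p was 0.0388 without R245W 1, the one omission that brought a member under 0.05. The start region, chr11:99039677-99042034, had a scaled pile-up of 1.82, 2.09 and 2.22 in the R172H libraries, 1.01, 0.987 and 1.03 in the R245W libraries, and 1.53, 1.51 and 1.55 in the null libraries, with no overlap between lines. The strongest region specific to a line, chr11:99080886-99082579, in the span of Tns4, had percentiles of 67.6, 67.8 and 66.8 in the R172H libraries, no peak in the R245W libraries, and weak calls in 2 null libraries. The strongest region called in all 9, chr11:99023387-99024927, covers the start of Top2a, a DNA topoisomerase gene, with percentiles of 93.4, 92.8 and 95.1 in the R172H libraries, 94.7, 94.5 and 95.5 in the R245W libraries, and 97.7, 96.9 and 96 in the null libraries.

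Igfbp6, which prefers Igf2 over Igf1, and Igfbp7 had the highest p-values of the test between lines. The Igfbp6 window, chr15:102094186-102199512, had 14, 15 and 16 peaks in the R172H libraries, 16, 14 and 15 in the R245W libraries and 16, 17 and 15 in the null libraries (exact permutation p = 0.561, Benjamini-Hochberg adjusted p = 0.648), and 13 of its 21 regions were called in all 9 libraries. The Igfbp6 promoter window had no peak, but regions on both sides of the start were called in all libraries. At chr15:102142962-102143930 the scaled pile-up was 2.4 ± 0.13 in the R172H line, 2.21 ± 0.0262 in the R245W line and 2.69 ± 0.175 in the null line (SD, n = 3 libraries each), and at chr15:102144262-102146048 it was 2.67 ± 0.0441 in the R172H line, 2.22 ± 0.136 in the R245W line and 2.58 ± 0.0383 in the null line (SD, n = 3 libraries each). The one region within the Igfbp6 span specific to a line was chr15:102147384-102148017, with percentiles of 30.3, 25 and 31.6 in the null libraries and no peak elsewhere. The strongest region of the window called in all 9 libraries, chr15:102135466-102136941, covers the start of the neighbouring Spryd3, with percentiles of 99.4, 99.3 and 98.9 in the R172H libraries, 99.5, 99.1 and 99.2 in the R245W libraries, and 99.5, 99.5 and 99.3 in the null libraries. Ranked by the lowest percentile within the line, the strongest specific to a line was chr15:102185816-102186802, in the span of Csad. It had percentiles of 25.3, 33.3 and 27.2 in the R245W libraries, no peak in the R172H libraries and 1 call, at 4.39, in null 1. By mean scaled pile-up it was lower, at 0.265 in the R245W line, than the null region within the Igfbp6 span, at 1.41 in the null line.

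The Igfbp7 window, chr5:77299240-77458045, had 10, 10 and 9 peaks in the R172H libraries, 10, 11 and 10 in the R245W libraries and 10, 9 and 10 in the null libraries (exact permutation p = 0.536, Benjamini-Hochberg adjusted p = 0.621). Its start region, chr5:77406438-77408473, was among the strongest peaks in each list, with percentiles of 96.6, 96.6 and 96.2 in the R172H libraries, 95.1, 93.5 and 96.5 in the R245W libraries, and 92.9, 93.2 and 92.8 in the null libraries. The scaled pile-up there was 3.64 ± 0.0463 in the R172H line, 2.31 ± 0.192 in the R245W line and 2.63 ± 0.026 in the null line (SD, n = 3 libraries each), and every R172H library was above every other library. Within the gene, chr5:77374979-77375741 was called only in the R245W libraries, with percentiles of 37.4, 56.9 and 33.9. By lowest percentile, the strongest region called in all 9 libraries and the strongest specific to a line lay beyond the gene. The start of Polr2b, an RNA polymerase II subunit gene, chr5:77309025-77310781, was called in all 9 libraries with percentiles of 95.6, 96.3 and 94.9 in the R172H libraries, 94.6, 95.6 and 96.3 in the R245W libraries, and 94.5, 93.4 and 96.1 in the null libraries. In every R172H library the Igfbp7 start had a higher percentile than the Polr2b start. At chr5:77301400-77302222, in the span of Noa1, a mitochondrial GTPase gene, no R172H library had a peak, while percentiles were 91.8, 90.3 and 91.1 in the R245W libraries and 87.3, 82.9 and 85.3 in the null libraries.

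A list of 25 further genes of the pathway (other binding proteins, insulin receptor substrates, proteases, growth hormone receptor and downstream signalling) was measured in the same way. All 25 were in the gene table, and 22 shared no region with the members. Of these 22, 5 passed the test between lines at a Benjamini-Hochberg adjusted p of 0.0371 in the exact permutation test (9.63% of all windows passed): Irs1, Pappa, Ghr, Grb10 and Foxo3. The 395 regions of the 22 genes held 55 called in R172H and not in null, or 13.9% (14.5% of all regions), and 53 in reverse, or 13.4% (10.3%). For R245W and null they held 32, or 8.1% (10%), and 19 in reverse, or 4.81% (4.03%), and for R172H and R245W 42, or 10.6% (11.5%), and 49 in reverse, or 12.4% (13.8%).

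Irs1, which passes the receptors' signal on, had 5 peaks in each R172H library, 11, 10 and 11 in the R245W libraries and 7 in each null library. Grb10, an imprinted inhibitor of these receptors, had 12 peaks in each R172H library, 8 in each R245W library and 10, 9 and 9 in the null libraries. The genes with the most regions specific to a line were Pappa, Ghr, Foxo3, Igf2bp2, Pik3r1 and Ins2; Ins2 lies in the Igf2 window. Pappa, the protease that frees IGFs from Igfbp4, had 8, 8 and 9 peaks in the R172H libraries, 15, 18 and 15 in the R245W libraries and 13, 14 and 14 in the null libraries. Ghr, the growth hormone receptor, which induces Igf1 in liver, had 25, 23 and 22 peaks in the R172H libraries, 13, 15 and 13 in the R245W libraries and 17, 17 and 18 in the null libraries. The 3 lines did not overlap in either window. Foxo3, a transcription factor that insulin and IGF signalling keeps out of the nucleus, had 8, 7 and 8 peaks in the R172H libraries, 12, 15 and 14 in the R245W libraries and 17, 19 and 18 in the null libraries. Igf2bp2, an RNA-binding protein that binds Igf2 messenger RNA, had 15, 15 and 13 peaks in the R172H libraries, 19, 18 and 17 in the R245W libraries and 20, 19 and 20 in the null libraries; its adjusted p was 0.0554 in the same exact test. Pik3r1, the regulatory subunit of PI3 kinase, had 14, 15 and 10 peaks in the R172H libraries, 19 in each R245W library and 12 in each null library (adjusted p = 0.0718 in the same exact test).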

How the data were processed

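The material was the deposited MACS2 narrowPeak file of each of the 9 ATAC-seq libraries, so no replicates were pooled. The submitters' processing notes name bcl2fastq 2.17 and Trimmomatic 0.33, then MACS2 2.1.0, Bowtie 1.1.2 and deepTools, and the build GRCm38. How these tools were run, which reads were dropped and whether Tn5 offsets were applied is not given in the sources used here. For every peak the authors deposited a score (not used), a fold of the summit pile-up over the local background, a -log10 p-value and a -log10 q-value. They are per-peak values of the authors and served only to describe or rank peaks within 1 list.

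Peaks of the 9 lists that overlapped by 1 bp or more were merged. A region was specific to a line against another when all 3 libraries of the one and none of the other had it. The pile-up was solved from fold and p under a Poisson model. The most frequent background pile-up, from 4.77 to 6.39, gives relative depth only, and no counting interval could be had. Peaks per gene window were tested by exact permutation over 280 partitions (smallest p 0.00357), with Benjamini-Hochberg adjustment over 19290 windows, and the procedure was tested on simulated data. Gene spans, starts and promoter sequences are from RefSeq (GRCm38.p6). The table lists spans without exons, so exonic or intronic position is not stated.

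The members and gene lists were chosen with earlier results of these data known. All 10 members are named. Regions named are, per member, the strongest specific to a line and the strongest called in all libraries, both ranked by lowest percentile. Others lie at starts or were chosen after their values were seen. Up to 6 further pathway genes with 3 or more specific regions in a pair of lines are named, with those past the threshold. Alternatives were windows of 20 and 100 kb, lists of equal length, a -log10 q of at least 5, calls in 2 of 3 libraries, overlap of 250 bp around summits, base pairs covered, a replicate block, and leaving out each library. Scripts ran in Python 3.11.15 (matplotlib 3.10.9, numpy 2.4.6, pandas 2.3.3 and scipy 1.17.1).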

Additional observations from a re-analysis of the deposited data

How the results depend on the processing

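With 20 kb on either side, regions called in R172H and not in null numbered 18, in R245W and not in null 9, and in R245W and not in R172H 12; with 100 kb, 46 were called in R172H and not in null, 42 in R172H and not in R245W, and 12 in null and not in R245W. Shorter windows hold fewer regions. The count called in null and not in R245W was also 7 with lists of equal length, 11 with calls in 2 of 3 libraries, and 4 to 9 when each library was left out. The other counts stayed within 1.5 times of the reported ones when each library was left out: 29 to 34 for R172H and not null, 17 to 21 in reverse, 16 to 19 for R245W and not null, 25 to 29 for R172H and not R245W, and 19 to 22 in reverse. The spread between lines of the peaks over all windows had exact permutation p = 0.0964 with 20 kb and between 0.0143 and 0.075 with each library left out. The number of members under an adjusted p of 0.05 was 1 with 100 kb (Igfbp3, 0.0394), 7 by base pairs covered, and 0 to 1 with each library left out (Benjamini-Hochberg, exact permutation test). The cause of these differences was not tested. Replicate numbers were not taken to pair the libraries, since the deviations of same-numbered libraries of different lines correlated between -0.00821 and 0.0277 and 0 of 9 pairs exceeded 0.1. In 14 of 18 comparisons, each among 3 libraries of another line, the correlation was highest with the same number, which is a hint from the data and not the design. With the lines permuted within each number as a replicate block, the spread over all windows had exact p = 0.0278, the smallest this block allows, and 0 members passed, which says nothing of stability because even members at that p had an adjusted p of 0.182. The line with the highest mean stayed R172H for the peaks over all windows and for Igf2, Igfbp3 and Igfbp4, and R245W for Igf1r, under every alternative run. No member window passed with the reported settings, whether its highest line stayed or changed. The highest line changed for Igf2r to null with a -log10 q of 5, with equal lists and with 20 kb. It changed for Igfbp7 to R172H with 20 and 100 kb, and for Igfbp6 to R245W by base pairs. In the Igf1 window R245W and null had equal means. There R245W was highest by base pairs and without R245W 1, R245W 3 or null 2. In the Igfbp2 and Igfbp5 windows R172H and R245W had equal means, and either was highest under some alternatives. Depth is unknown, so a region without a peak was not called in that list and is not shown to be closed.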

Other observations

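Some of the clearest differences in these windows lay at genes outside the IGF axis. They were chosen after their values were seen and carry no test. Beside Igfbp6, chr15:102150419-102151454 in the span of Soat2, an enzyme that esterifies cholesterol, had a scaled pile-up of 0.406, 0.374 and 0.34 in the R172H libraries, 0.412, 0.366 and 0.4 in the R245W libraries, and 4.02, 3.96 and 3.85 in the null libraries. At chr15:102126028-102127274, in the span of Spryd3, the R172H line was the highest, with 0.774, 0.93 and 0.698 in the R172H libraries, 0.25, 0.176 and 0.257 in the R245W libraries, and 0.154, 0.191 and 0.176 in the null libraries.

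Among the further pathway genes, Stc1, an inhibitor of the protease Pappa, had 2, 2 and 3 peaks in the R172H libraries, 3, 3 and 2 in the R245W libraries and 0 in each null library; copy number was not measured. It did not pass the exact permutation test after Benjamini-Hochberg adjustment over all gene windows (adjusted p = 0.0718), and it was chosen after its values were seen. Irs2, an insulin receptor substrate, had 14 peaks in each R172H library, 10, 9 and 9 in the R245W libraries and 9, 8 and 8 in the null libraries. Irs2 did not pass the same exact permutation test either (adjusted p = 0.0607), and it too was chosen after its values were seen.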
